A study of Mus musculus with 6 samples.

Results

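Integrins are the cell's receptors for the extracellular matrix. Each is a pair of an α and a β subunit that span the plasma membrane, bind matrix proteins outside the cell and couple to actin through talin and kindlin inside it. Tetraspanins are small membrane proteins that cross the bilayer repeatedly and hold partners, integrins among them, in membrane domains and exosomes. Neuroblastoma cells come from the sympathetic lineage of the migrating neural crest, which uses integrins to move through collagen, laminin and fibronectin. The genes of both families were taken by symbol, as Itga and Itgb genes, numbered Tspan genes and the tetraspanin genes Cd9, Cd37, Cd53, Cd63, Cd81, Cd82 and Cd151. There were 52 such genes, 26 integrin and 26 tetraspanin genes, of 19938 genes named on the array.

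They were measured on 6 Affymetrix whole-transcript arrays of mouse N2A cells, an established neuroblastoma line. In 3 cultures the cells received a short hairpin RNA vector against Pax6, and in 3 cultures they received a control vector whose hairpin has no target. Both groups were transiently transfected with 1.5 µg of vector by FuGENE 6 and harvested 3 days later. No selection of transfected cells is described and all cultures are of 1 line, which limits them as a model. With 1 hairpin vector against Pax6, effects of that hairpin on other targets cannot be told apart from those of lower Pax6. Values are log2 summaries per gene, differences are knockdown minus control, and the question is which transcripts change when the transcription factor PAX6 is reduced.

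Pax6 itself, the targeted gene, had log2 values of 8.48, 8.30 and 8.50 in the knockdown arrays, against 8.79, 8.82 and 8.81 in the control arrays (log2 difference -0.38, SE 0.071, limma adjusted p = 0.0382), and the groups did not overlap. The call was lost without knockdown replicate 3 (adjusted p = 0.126), without control replicate 1, 2 or 3 (0.120, 0.180 and 0.141) and with a variance filter (0.143). Array-wide median log2 values ran from 7.49 to 7.59. Of 14 markers of sympathetic neuroblasts 12 were on the array, and all 12 lay above the median on every array. Of these, 4 fell in the knockdown (Dbh, Chga, Chgb and Isl1), 0 rose, and 8 did not pass. Over all tested genes, 3.88% fell and 2.79% rose. Among the 8, Gata3 (-0.21) was lower and Elavl4 (0.19) higher at an unadjusted limma p under 0.05. Phox2a, Hand2, Gata2, Th, Stmn2 and Tubb3 differed by 0.05, -0.07, 0.01, -0.22, 0.03 and 0.12. The mean log2 value over the 12 lay between 11.17 and 11.25 in knockdown arrays and between 11.39 and 11.42 in control arrays. Dbh moved farthest of the 12, by -1.08. All 7 leukocyte markers on the array, Ptprc among them, lay below the median on every array. Of the markers of platelets, fibroblasts, endothelium and glia, 1 of 3, 4 of 7, 1 of 4 and 1 of 4 lay above it on all 6 arrays, and 0 passed by limma (1, Pdgfrb, at an unadjusted p under 0.05).

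A gene was tested where its value exceeded the array-wide median on at least 3 arrays, which held for 27 of the 52 genes. Of the 27, 10 fell in the knockdown at a false discovery rate (FDR) of 10%, 0 rose and 17 did not pass. Those 10 are 37.0% of the tested members, whereas 3.88% of the 11424 tested genes fell and 2.79% rose. At an unadjusted limma p under 0.05, 14 members were lower and 1, Itgb3, was higher, against 1079 and 1067 of the 11424 tested genes. The log2 differences of the 10 lay between -0.81 and -0.23, so that signal decreased by 43.1% for Itga2 and decreased by 14.7% for Cd81, the ends of that range. The median difference was -0.173 over the 27 tested members and 0.017 over all tested genes, and over all 52 members it was -0.02, against 0.012 over all named genes. In 15 of the 27 (55.6%) the knockdown arrays all lay below the control arrays, as in 11.7% of all tested genes, and in 1 they all lay above, as in 13.9%. The knockdown also lowered 4 of the 12 neuroblast markers, and the part of that shift in these falls was not tested. In bulk RNA, fewer cells of a type and less RNA per cell cannot be told apart.

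**Figure D1:**
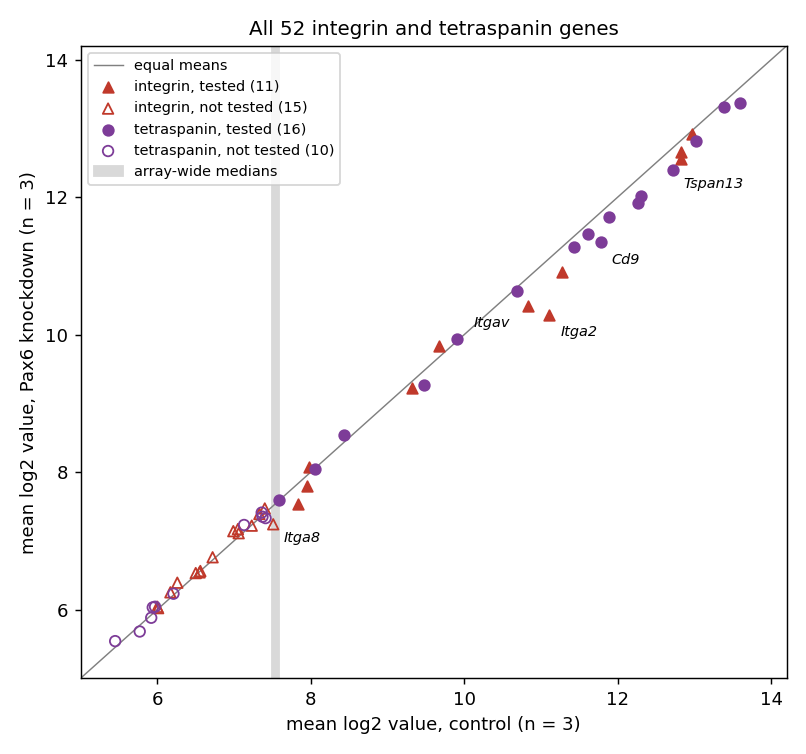
Mean log2 value in Pax6 knockdown arrays (vertical axis) against control arrays (horizontal axis), n = 3 each, for the 52 genes. Triangles are integrins and circles tetraspanins, filled where tested, and the grey band spans the array-wide medians (7.49 to 7.59). Filled points lie mostly below the line of equal means, Itga2 farthest, while open points lie along it, with Itga8 (-0.26) farthest below.

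The count depended on single arrays. It was 6, 10 and 1 without knockdown replicates 1, 2 and 3, and 2, 1 and 3 without control replicates 1, 2 and 3. The count over all tested genes was 762 with all 6 arrays. In the same order it was 600, 1285 and 56, then 185, 51 and 159. Itga2 passed in all 6 of these fits. Cd9 lost it without knockdown replicate 3 (adjusted p = 0.121) or control replicate 2 (0.135), and the other 8 lost it without any 1 of knockdown replicate 3 and control replicates 1 and 2, with adjusted p up to 0.321.

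The α subunits help decide what an integrin binds. Collagen is recognised by the products of Itga1, Itga2, Itga10 and Itga11, all of which pair with the β1 subunit. Both collagen receptor genes that were tested, Itga2 and Itga1, fell, and they are neighbours on chromosome 13 with 0 coding genes between them in the RefSeq order. Itga2 (probe set 10412267, gene identifier 16398) encodes the α2 subunit of the collagen and laminin receptor of platelets and epithelia. It read 10.40, 10.28 and 10.19 in knockdown arrays, against 11.05, 11.19 and 11.07 in control arrays. The lowest control array stood well above the highest knockdown array. The means were 10.29 ± 0.11 in the knockdown and 11.11 ± 0.075 in the control (SD, n = 3 each). The log2 difference was -0.81 (SE 0.075, 95% confidence interval -0.99 to -0.64, adjusted p = 0.00345), and no other member moved as far.

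Itga1 encodes the α1 subunit, which prefers the collagen of basement membranes. Its values were 11.01, 10.87 and 10.85 in knockdown arrays, against 11.25, 11.32 and 11.26 in control arrays, without overlap. The log2 difference was -0.37 (SE 0.067, adjusted p = 0.0364). Itga10 and Itga11, the collagen receptors of cartilage and of fibroblasts, lay near or below the array median and were not tested. Itga10 differed by 0.07 and Itga11 by 0.06, with overlapping arrays.

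The bases before the start sites of Itga2, Itga1 and Cd9 are shown because these are the 3 members that also passed when no filter on low values was applied. Each run is the 250 bases before the annotated start in the RefSeq promoter table of GRCm38.p6, on the minus strand, at chr13:114932101-114932350 for Itga2, chr13:115101965-115102214 for Itga1 and chr6:125494761-125495010 for Cd9. Capitals mark GC boxes, GGGCGG on either strand, the element bound by SP1. The Itga2 run holds no capitals, but 1 GC box reaches into the 50 bases after its start.
Itga2: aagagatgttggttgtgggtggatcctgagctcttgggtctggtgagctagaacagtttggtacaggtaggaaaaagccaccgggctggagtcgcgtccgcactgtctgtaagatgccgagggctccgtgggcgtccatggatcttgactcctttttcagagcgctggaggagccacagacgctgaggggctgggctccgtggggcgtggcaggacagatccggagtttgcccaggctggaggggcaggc
Itga1: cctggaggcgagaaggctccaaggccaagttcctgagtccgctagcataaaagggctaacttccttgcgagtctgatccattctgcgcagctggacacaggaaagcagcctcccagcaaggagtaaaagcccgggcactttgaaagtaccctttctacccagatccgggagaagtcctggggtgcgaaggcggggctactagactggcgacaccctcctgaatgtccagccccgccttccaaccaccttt
Cd9: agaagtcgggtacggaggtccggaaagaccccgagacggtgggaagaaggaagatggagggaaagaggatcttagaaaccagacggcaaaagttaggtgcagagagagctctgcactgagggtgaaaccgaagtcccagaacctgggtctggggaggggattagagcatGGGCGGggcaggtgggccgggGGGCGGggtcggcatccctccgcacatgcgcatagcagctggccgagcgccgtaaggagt

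Promoter windows of 300 bases, 250 before and 50 after a start, were held for 43 of the 52 members, 55 windows in all. A GC box occurred in 24 of the 55 (43.6%) and in 35.7% of all 32851 windows. It occurred in 9 of the 12 windows of the members that fell and in 7 of the 18 windows of tested members that did not pass. Median GC content was 64.7% in the former, 60.0% in the latter and 52.7% in all windows. Whether GC content accounts for the GC boxes was not tested. Searched likewise, the CCAAT box occurred in 25.5% of member windows and 37.4% of all windows. The TATA box (TATAAA) occurred in 3.64% and 13.6%. The palindrome of TAAT and ATTA with 3 bases between them, which homeodomains such as that of PAX6 bind as pairs, was searched on both strands. It occurred in 1 of the 55 windows, that of Tspan9, and in 0.487% of all windows. Other kinds of PAX6 site were not searched, so this count does not cover them. A match is a description of these letters and not evidence of binding.

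Among the subunits that read the Arg-Gly-Asp (RGD) sequence of fibronectin and vitronectin, Itgav fell. Its product, αv, also holds latent TGF-β. Itgav read 10.60, 10.38 and 10.30 in knockdown arrays, against 10.83, 10.81 and 10.85 in control arrays. The control arrays lay close together and every knockdown array was below them (log2 difference -0.41, SE 0.083, adjusted p = 0.0477). Itga2b, which encodes the fibrinogen receptor subunit of platelets, was tested and differed by 0.10 (95% confidence interval -0.08 to 0.28, adjusted p = 0.561). Of the 3 platelet markers on the array, Pf4 and Ppbp lay below the median on every array and Gp9 above it on all 6, with means of 8.17 in the knockdown and 8.15 in the control. Itga5, the fibronectin receptor subunit gene, was below the median on every array in both groups, with a difference of 0.04. Itga8 exceeded the median on 1 control array only and was not tested. It read 7.35, 7.17 and 7.21 in knockdown arrays, against 7.49, 7.58 and 7.45 in control arrays, a difference of -0.26 without overlap (adjusted p = 0.222 when all named genes were tested).

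All 3 laminin-binding α subunit genes were tested, and Itga3 fell. It encodes the α3 subunit of epithelial basement membrane contacts. Its values were 7.48, 7.53 and 7.62 in knockdown arrays, against 7.88, 7.81 and 7.81 in control arrays (log2 difference -0.29, SE 0.064, adjusted p = 0.0577). All 3 control arrays but only 1 knockdown array exceeded the median, so Itga3 entered the test mainly through the control group. Itga6, a laminin receptor gene of neural progenitors, read 13.06, 12.85 and 12.86 in knockdown arrays and 12.97, 12.95 and 12.98 in control arrays, and its difference of -0.04 had a 95% confidence interval of -0.21 to 0.12. Itga7, best known from muscle, differed by -0.15 (adjusted p = 0.375).

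The remaining α subunit genes were at or below the filter. Itga4 and Itga9, whose products bind fibronectin and VCAM1 or tenascin, differed by -0.01 and 0.00. The leukocyte subunit genes Itgad, Itgae, Itgal, Itgam and Itgax lay between 5.85 and 7.23 in knockdown arrays and between 5.94 and 7.14 in control arrays, below the median on every array, as did their β partners Itgb2 and Itgb7. None of these 9 genes was tested.

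Of the β subunit genes 4 were tested, and Itgb5 fell. The αvβ5 pair binds vitronectin. Itgb5 read 12.58, 12.56 and 12.53 in knockdown arrays, against 12.79, 12.92 and 12.80 in control arrays (log2 difference -0.27, SE 0.062, adjusted p = 0.0624). The groups were separated by more than the spread of either one. Itgb1 encodes the β1 subunit shared by most matrix receptors and the only partner of α1 and α2. Its values were 12.69, 12.66 and 12.64 in knockdown arrays, against 12.81, 12.85 and 12.83 in control arrays. They did not overlap, but the difference of -0.17 (SE 0.055, 95% confidence interval -0.30 to -0.05) missed 10% FDR (adjusted p = 0.139). It passed with the replicate number as a block (0.0857).

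Itgb3, the partner of αIIb and αv, was the 1 tested member whose knockdown arrays all lay above the control arrays. It read 9.91, 9.76 and 9.82 in knockdown arrays, against 9.66, 9.66 and 9.69 in control arrays. The difference of 0.16 (95% confidence interval 0.01 to 0.30) did not pass (adjusted p = 0.235). Itgb4, which pairs with α6 in hemidesmosomes, differed by -0.10 (adjusted p = 0.415). Itgb6 and Itgb8, the αv partners that activate TGF-β, were below the median on every array and differed by 0.04 and 0.08.

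**Figure D2:**
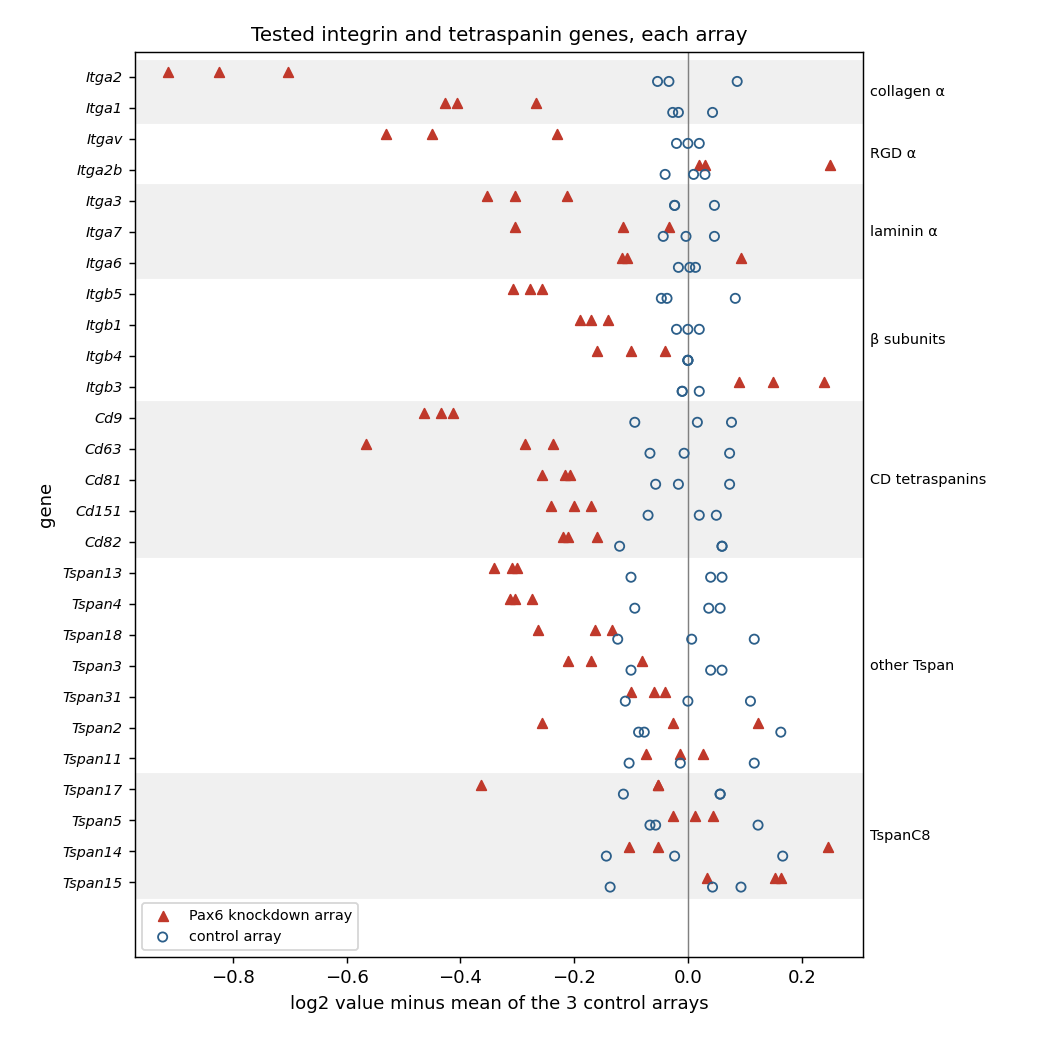
Per-array deviation from the control mean on the log2 scale (horizontal axis) for the 27 tested genes (vertical axis, grouped by role). Red triangles are Pax6 knockdown arrays and open blue circles control arrays. The triangles of Itga2 stand farthest from its circles, those of all 5 CD tetraspanins lie left of their circles, and those of Itgb3 alone lie wholly to the right.

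Tetraspanins fell in the same number as integrins, with 5 of 16 lower (31.2%), 0 higher and 11 not passed. Among them 8 were lower and 0 higher at an unadjusted limma p under 0.05, against 1079 and 1067 of the 11424 tested genes. With the replicate number as a block 8 passed, all lower, where 8.91% of all tested genes fell and 8.96% rose. With that block 14 of the 27 members passed, all lower.

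Cd9, whose product organises integrins and is needed for sperm and egg to fuse, changed most among the tetraspanins. Cd9 (probe set 10548030, gene identifier 12527) read 11.36, 11.31 and 11.34 in knockdown arrays, against 11.85, 11.79 and 11.68 in control arrays. The means were 11.34 ± 0.028 in the knockdown and 11.78 ± 0.090 in the control (SD, n = 3 each), and the arrays did not overlap. The log2 difference was -0.44 (SE 0.066, 95% confidence interval -0.59 to -0.29, adjusted p = 0.0217), so that signal decreased by 26.2%. Its close relative Cd81, a co-receptor subunit on B cells, read 13.38, 13.39 and 13.34 in knockdown arrays, against 13.58, 13.67 and 13.54 in control arrays. It fell by 0.23 on the log2 scale (SE 0.061, adjusted p = 0.0912).

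Cd63 marks late endosomes, lysosomes and exosomes. It read 11.70, 11.98 and 12.03 in knockdown arrays, against 12.26, 12.34 and 12.20 in control arrays, with knockdown replicate 1 below the other knockdown arrays. The log2 difference was -0.36 (SE 0.094, adjusted p = 0.0879), and without that array it was -0.26 and the call was lost (0.112). Cd151 encodes the tetraspanin that binds laminin receptors directly, and Cd82 a suppressor of metastasis. Cd151 read 12.85, 12.82 and 12.78 in knockdown arrays, against 13.07, 13.04 and 12.95 in control arrays (-0.20, adjusted p = 0.124). Cd82 read 9.31, 9.26 and 9.25 in knockdown arrays, against 9.53, 9.53 and 9.35 in control arrays (-0.20, adjusted p = 0.171). Neither overlapped, and each passed with the replicate block (0.0539 for Cd151 and 0.0766 for Cd82), Cd151 also after array centring. All 5 tested CD tetraspanins had lower means in the knockdown, as had 5082 of the 11424 tested genes. Of the 5, 3 passed 10% FDR, where 3.88% of all tested genes fell.

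Tspan13 and Tspan4 were the numbered tetraspanin genes that fell. Tspan13 read 12.41, 12.38 and 12.42 in knockdown arrays, against 12.78, 12.76 and 12.62 in control arrays (log2 difference -0.32, SE 0.064, adjusted p = 0.0456). Tspan4 encodes a tetraspanin of migrasomes, the vesicles that moving cells leave on their retraction fibres. It read 12.00, 12.03 and 11.99 in knockdown arrays, against 12.34, 12.36 and 12.21 in control arrays (log2 difference -0.29, SE 0.064, adjusted p = 0.0578). The spread among knockdown arrays was small for both genes, and neither overlapped. Tspan18 read 11.63, 11.73 and 11.76 in knockdown arrays, against 11.77, 12.01 and 11.90 in control arrays (-0.19, adjusted p = 0.239, or 0.0826 with the replicate block). The 4 other tested genes of this group, Tspan2, Tspan3, Tspan11 and Tspan31, had overlapping arrays and differences of -0.05, -0.15, -0.02 and -0.07.

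Tetraspanins of the TspanC8 group escort the protease ADAM10 to the cell surface. Of its 6 genes 4 were tested, and 0 passed 10% FDR by limma, with or without the replicate block, while 0 had an unadjusted p under 0.05 without the block. Tspan5 differed by 0.01 (95% confidence interval -0.15 to 0.17), Tspan14 by 0.03 (-0.23 to 0.29), Tspan15 by 0.12 (-0.06 to 0.30) and Tspan17 by -0.16 (-0.38 to 0.07). All 4 had overlapping arrays, although Tspan17 was lower in the knockdown in each of the 3 same-numbered pairs (-0.25, -0.10 and -0.11). Tspan10 and Tspan33 were below the median on every array, and Adam10 itself differed by 0.00 (adjusted p = 0.998).

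The 10 tetraspanin genes that were not tested lay below the median on every array. They included the leukocyte genes Cd37, Cd53 and Tspan32, whose differences lay between -0.02 and 0.09, and Tspan12, which assists Norrin signalling in retinal vessels (-0.09). Tspan1, Tspan6, Tspan8 and Tspan9 made up the rest with Tspan10 and Tspan33. Over all 25 members that were not tested, the differences lay between -0.26 and 0.15.

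**Figure D3:**
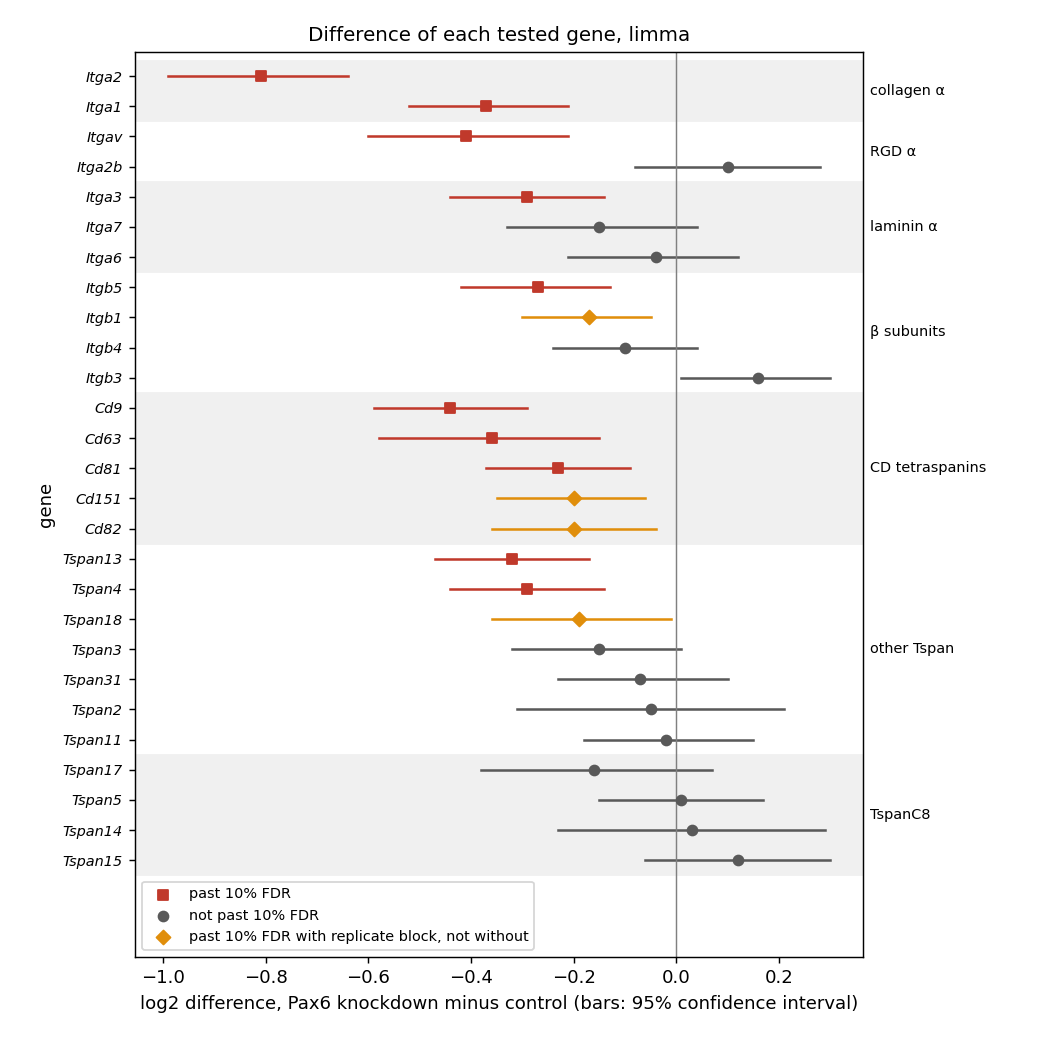
Log2 difference of each tested gene (horizontal axis, Pax6 knockdown minus control) with its 95% confidence interval from limma, grouped by role (vertical axis). Squares passed 10% FDR (10 genes), diamonds missed it but passed with the replicate number as a block (Itgb1, Cd151, Cd82 and Tspan18), and circles did not pass (13 genes). The called genes run from -0.81 (Itga2) to -0.23 (Cd81), and the TspanC8 intervals all span 0.

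Several members are neighbours in the RefSeq gene order. Besides Itga2 and Itga1, Tspan18 and Cd82 are adjacent on chromosome 2 (-0.19 and -0.20), and Tspan32 and Cd81 on chromosome 7. Cd81 fell while Tspan32, below the filter, differed by 0.02. Cd151 and Tspan4 are separated by 1 coding gene on chromosome 7, with differences of -0.20 and -0.29. Cd63 and Itga7, separated by 2 coding genes on chromosome 10, differed by -0.36 and -0.15. Among these, Tspan18, Cd82, Cd151 and Itga7 did not pass 10% FDR without the replicate block. Tspan11 and Tspan9 on chromosome 6 differed by -0.02 and -0.07. Itgam, Itgax and Itgad, in a row on chromosome 7, differed by 0.00, 0.14 and 0.11. Of Tspan11, Tspan9, Itgam, Itgax and Itgad, only Tspan11 was tested, and it did not pass.

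Other genes of the pathway were read from the same fit. Of 21 tested integrin ligand genes 3 fell (14.3%, against 3.88% of all tested genes), 1 rose (4.76%, against 2.79%) and 17 did not pass. Nid1, the basement membrane linker nidogen, read 7.68, 7.43 and 7.62 in knockdown arrays, against 7.87, 7.86 and 8.09 in control arrays (-0.37, SE 0.092, adjusted p = 0.0795). Emilin1, an elastic fibre glycoprotein gene, fell by 0.30 (SE 0.073, adjusted p = 0.0741), and Lamc1, the laminin γ1 chain, by 0.27 (SE 0.073, adjusted p = 0.0988). The rise was in Tgfb1, whose latent peptide is an αv ligand (0.33, SE 0.072, adjusted p = 0.0564). The collagen chain genes Col1a1 and Col4a1 differed by 0.03 and -0.03, and Fn1, fibronectin, by -0.09 (adjusted p = 0.581). The median over the ligand list was -0.06.

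Of 36 tested genes for proteins that bind or signal from integrin tails, 3 rose (8.33%, against 2.79% of all tested genes), 0 fell (against 3.88%) and 33 did not pass. At an unadjusted limma p under 0.05, 6 were higher and 2 lower, against 1067 and 1079 of the 11424 tested genes. Tgfb1i1, which encodes the paxillin relative HIC5, read 10.15, 10.18 and 10.20 in knockdown arrays, against 9.81, 9.93 and 9.89 in control arrays (0.30, SE 0.060, adjusted p = 0.0460). Parvb, β-parvin, rose by 0.30 (SE 0.071, adjusted p = 0.0699) and Lims2, PINCH2, by 0.24 (SE 0.066, adjusted p = 0.0989), both partners of the integrin-linked kinase. Ilk itself differed by 0.00, the kindlin gene Fermt2 by 0.00 and the talin gene Tln1 by -0.12 (adjusted p = 0.466). With the replicate block 6 of the 36 rose (16.7%, against 8.96% of all tested genes) and 2 fell (5.56%, against 8.91%). The median over this list was 0.023, close to that of all tested genes.

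Among 15 tested genes of tetraspanin partners 0 passed by limma. At an unadjusted p under 0.05, where 1079 of the 11424 tested genes were lower and 1067 higher, 3 partners were lower and 3 higher. Those with the lowest p were Egfr (-0.23, adjusted p = 0.116) and Tsg101, a component of the exosome-forming ESCRT machinery (0.21, adjusted p = 0.123). With the replicate block 3 fell (20%) and 2 rose (13.3%), against 8.91% and 8.96% of all tested genes. The partners that CD9 and CD81 hold directly, Igsf8 and Ptgfrn, differed by -0.07 and 0.22 (adjusted p = 0.675 and 0.194). Of the tetraspanin genes with other names, Upk1a and Rom1 were tested. Rom1, a photoreceptor disc gene, differed by -0.25 (adjusted p = 0.187, or 0.0468 with the replicate block), and Upk1a, a bladder gene, by -0.03 (adjusted p = 0.865). Each of the 7 ligand and adaptor genes that passed lost its call without knockdown replicate 3, control replicate 2 or control replicate 3, and all but Lamc1 also without control replicate 1.

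**Figure D4:**
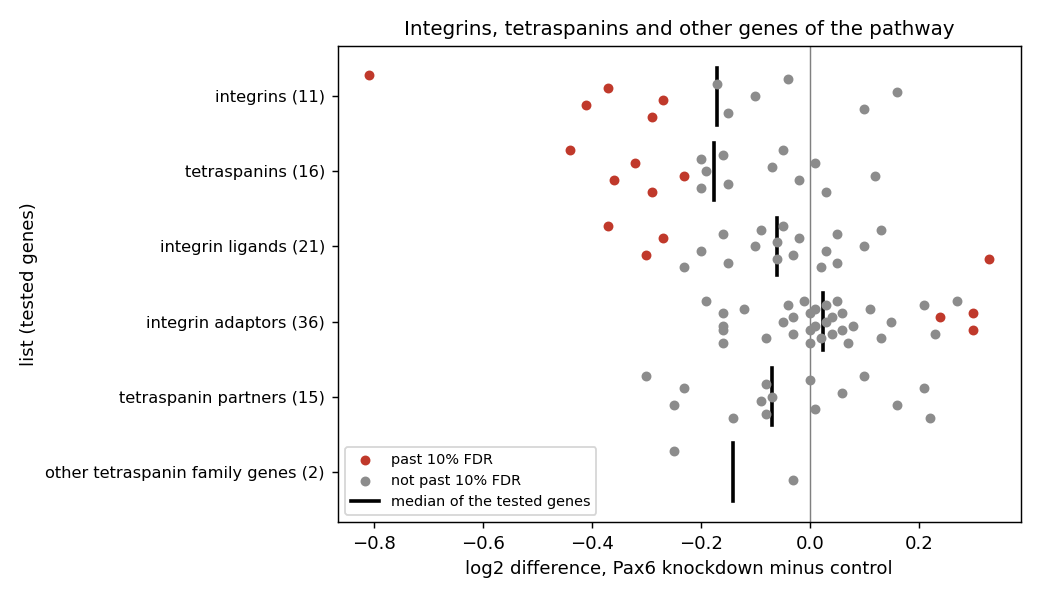
Log2 difference (horizontal axis, Pax6 knockdown minus control) of each tested gene by list (vertical axis, number of tested genes in brackets). Red points passed 10% FDR and black bars are list medians. Red points lie only left of 0 for integrins and tetraspanins, on both sides for ligands (Tgfb1 at 0.33) and only right of 0 for adaptors.

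**Figure D5:**
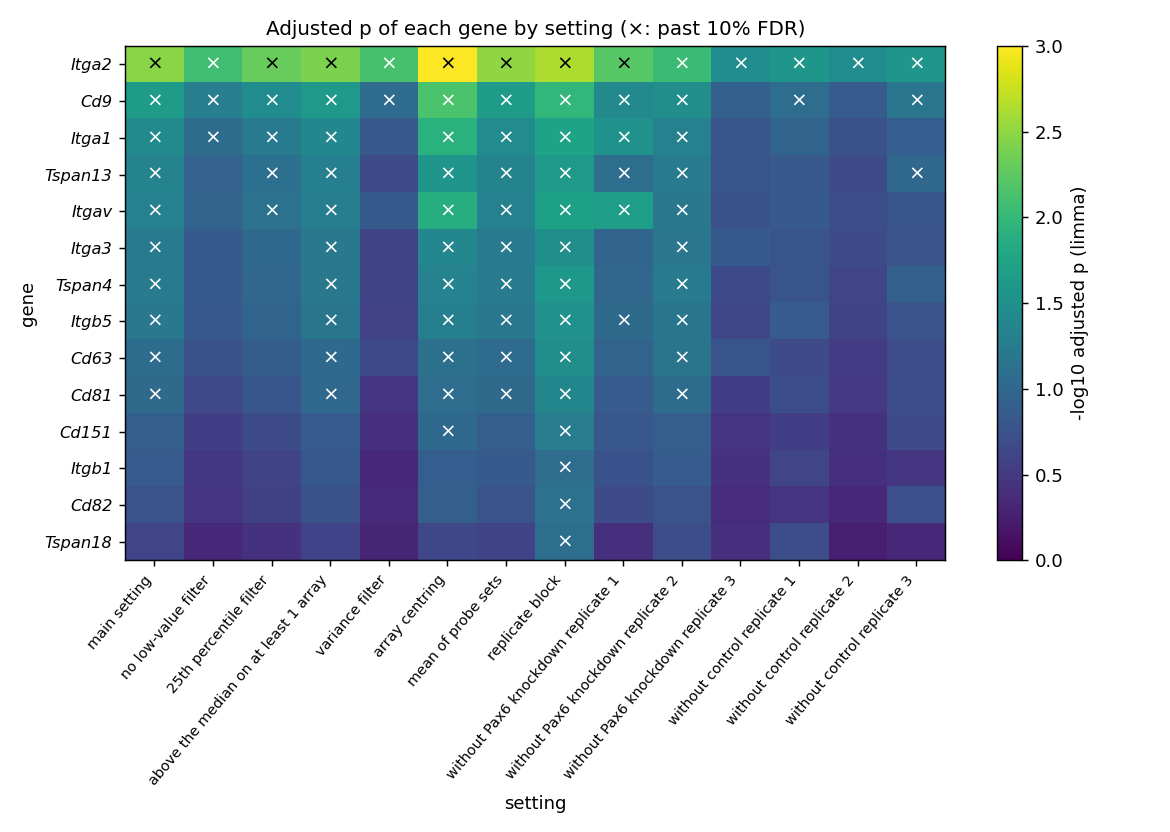
Adjusted p from limma as -log10 (colour) for the 10 members that fell and the 4 that passed only with the replicate block or array centring (vertical axis) under each setting (horizontal axis), with crosses where 10% FDR was passed. Itga2 carries a cross in every column, Cd9 in all but the columns without knockdown replicate 3 or control replicate 2, and the columns without single control arrays hold 1 to 3 crosses.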

How the data were processed

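Values are the deposited log2 summaries of 35556 probe sets on a whole-transcript Affymetrix mouse array, made from 200 ng of total RNA per culture. The authors had corrected background, quantile normalised and summarised the probes by RMA, and versions are not given in the sources used here. RMA compresses differences near background, and quantile normalisation hides changes in total RNA per cell. Of the probe sets 21789 carry 1 gene symbol, 1621 several and 12146 none in the platform annotation. The 1-symbol probe set with the highest mean over the 6 arrays stood for each gene. Itgad alone among the members had a second one, which differed by -0.03, against 0.11 for the one kept.

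Genes above the array-wide median on at least 3 arrays were tested by limma 3.58.1 in R 4.3.3 (lmFit and eBayes, two-sided, Benjamini-Hochberg over 11424 genes, 10% FDR, the threshold and test of the study). The labels call the cultures biological replicates, and the number of arrays limits the precision. Both groups share replicate numbers, whose meaning the labels do not state. Deviations from group means correlated at 0.574, 0.323 and 0.230 within numbers 1, 2 and 3 over all tested genes, which was read as a pairing of arrays by number, and a fit with the number as a block was run. Knockdown replicate 2 also correlated with control replicate 3, at 0.178, so the hint is not specific. Over the tested members alone the correlations within numbers were 0.422, 0.472 and 0.097. There, knockdown replicate 3 correlated more with control replicate 2, at 0.206, so number 3 showed no pairing in the members. Alternatives changed the filter, the centring, the probe set rule or the arrays. The members and lists were chosen with earlier results of these data known. Genes named are Pax6, every member past 10% FDR or changing call with the block, Itgb1, Cd81 and Cd63, other members within their role group, and from each list up to 4 genes past 10% FDR or, where none passed, the 2 with the lowest p. Adam10, Igsf8, Ptgfrn, Col1a1, Col4a1, Fn1, Ilk, Fermt2 and Tln1 were added for their known roles, after their values had been seen.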

Additional observations from a re-analysis of the deposited data

How the results depend on the processing

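Over 13 alternatives, 6 of which left out 1 array, the members past 10% FDR by limma were lower in every setting. The 10 members became 3 when every named gene was tested, 5 when the filter was set at the 25th percentile and 2 when genes were filtered by variance, and between 1 and 10 with 1 array left out. For integrins, 5 became 2, 3 and 1 under the same filters and 1 to 5 with 1 array left out. For tetraspanins, 5 became 1, 2 and 1, 8 with the replicate block, and 0 to 5 with 1 array left out. The counts of 0, without knockdown replicate 3 or control replicate 2, went with 6 tetraspanin genes each at an unadjusted p under 0.05. Without the filter more genes shared the adjustment, and the fits with 1 array left out held 5 arrays. Why the counts moved was not tested. Over all tested genes, 762 became 245, 389 and 136 under the same filters, 1204 with array centring, 2042 with the replicate block and 51 to 1285 with 1 array left out. The difference of Pax6 stayed between -0.42 and -0.32 with 1 array left out, and its call was lost with the variance filter (-0.38, adjusted p = 0.143) and without knockdown replicate 3 or any 1 control array (adjusted p up to 0.180). The difference of Upk1a ran from -0.07 to 0.01 with 1 array left out, turning sign without knockdown replicate 2. For integrin ligands, 4 became 0 by limma when every named gene was tested (6 at an unadjusted p under 0.05) and 0 by variance filter (5), and for adaptors 3 became 0 in both (6 and 5). Tetraspanin partners went the other way after array centring, with 4 past 10% FDR, 3 lower and 1 higher. Besides the calls given above, the replicate block changed no call of a member. The members below the median have values near background, where differences are compressed, so a change in them was not detectable with confidence.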
